A study of Mus musculus with 12 samples.

Results

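Bivalent promoter bins and poised enhancer bins are the 2 kb stretches of the mouse genome that a captured promoter contacted on its own chromosome and that the deposited annotation marks as a bivalent promoter or a poised enhancer, in fetal liver cells, adult bone marrow cells or both. The rule kept 1670 of the 67766 contacted bins: 1150 were bivalent, 562 were poised, and 42 of these carried both annotations. They took part in 2197 of the 88475 contacts within a chromosome, 1555 with bivalent and 697 with poised bins, from 1059 captured promoters. Every listed contact has a score above 0 in fetal cells, adult cells or both, so a bin could enter only through a called contact. Beyond that, no count or score entered the choice.

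The contacts come from promoter Capture-C, in which cross-linked chromatin is cut with DpnII, ligated, and enriched with probes for fragments joined to selected promoters. Haematopoietic stem cells (HSCs) were sorted as Lin- Sca1+ cKit+ CD135- cells, a gate that also holds early progenitors, from B6129SF1 mice. The fetal group was the liver at embryonic day 14.5 and the adult group the bone marrow at 6 to 8 weeks, with 4 libraries each, 2 in each of 2 batches. The batches list contacts of different genes, from 1939 promoters in the first and 1814 in the second. They are therefore not repeats of each other, and each contact rests on the 2 libraries per population of its batch. The 4 samples of the HPC7 cell line, wild type and TCF3 knockout, were not used here. Counts and scores are deposited pooled per population and batch, and expression values and marks of bins per population. None below therefore has an error between libraries, and no test between the populations was possible. The sample titles name Capture-C only, so the libraries behind the expression values and marks are not among these samples.

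A bivalent promoter carries a histone mark of active promoters, H3K4me3, together with the Polycomb mark H3K27me3, and such genes are usually silent or weakly transcribed while remaining open to later activation. Many regulators of development are kept in this state in stem cells. A poised enhancer is the distal counterpart: it carries the enhancer mark H3K4me1 with H3K27me3 and lacks the acetylation of active enhancers. Which marks and thresholds defined the states in this series is not stated in the sources used here.

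Captured fragments let 59 of the 1150 bivalent bins be named, by the rule that the middle of the fragment lay in the bin, and 59 genes lay in them. The genome of the build used for the contacts, mm9, was not used here, so the bins themselves are not printed. In their place stand the 250 bases before the RefSeq start (build GRCm38.p6) of 5 such genes with a single listed start, 5′ to 3′ on the gene's strand, with each CG in capitals. CpG-rich promoters are the usual sites of bivalency, and the 5 cover genes whose bin was bivalent in fetal cells alone (Ltbp3, Gda), in adult cells alone (Slc16a3, Bcam) and in both (Gata3). The RefSeq start need not be the one in the bin.
Ltbp3: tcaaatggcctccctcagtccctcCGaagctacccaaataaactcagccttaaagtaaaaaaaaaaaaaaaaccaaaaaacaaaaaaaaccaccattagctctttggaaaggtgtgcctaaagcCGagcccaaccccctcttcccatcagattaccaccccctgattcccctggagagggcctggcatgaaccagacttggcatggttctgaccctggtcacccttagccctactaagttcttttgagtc
Gda: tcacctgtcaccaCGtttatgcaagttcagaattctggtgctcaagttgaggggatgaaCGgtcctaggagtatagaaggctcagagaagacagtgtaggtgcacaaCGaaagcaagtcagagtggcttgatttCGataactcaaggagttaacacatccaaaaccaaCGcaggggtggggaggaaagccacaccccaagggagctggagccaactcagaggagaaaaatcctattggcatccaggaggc
Slc16a3: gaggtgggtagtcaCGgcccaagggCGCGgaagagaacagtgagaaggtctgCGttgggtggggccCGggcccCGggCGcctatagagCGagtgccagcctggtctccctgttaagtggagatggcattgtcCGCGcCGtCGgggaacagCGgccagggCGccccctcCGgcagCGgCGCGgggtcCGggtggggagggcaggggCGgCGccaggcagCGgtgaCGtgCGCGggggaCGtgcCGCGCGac
Bcam: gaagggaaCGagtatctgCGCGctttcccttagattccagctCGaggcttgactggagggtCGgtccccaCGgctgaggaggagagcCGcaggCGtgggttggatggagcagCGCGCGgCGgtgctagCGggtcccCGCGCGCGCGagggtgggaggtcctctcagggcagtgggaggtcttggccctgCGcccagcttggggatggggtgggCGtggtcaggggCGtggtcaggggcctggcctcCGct
Gata3: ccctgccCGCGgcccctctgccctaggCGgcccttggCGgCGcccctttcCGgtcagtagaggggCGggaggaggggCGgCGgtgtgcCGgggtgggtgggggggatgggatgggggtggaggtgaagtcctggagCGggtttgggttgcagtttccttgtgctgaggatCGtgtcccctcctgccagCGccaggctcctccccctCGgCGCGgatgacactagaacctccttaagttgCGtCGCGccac
The stretch lies at chr19:5740650-5740899 on the plus strand for Ltbp3 and at chr19:21472662-21472911 on the minus strand for Gda. For Slc16a3 it is chr11:120948817-120949066 on the plus strand, for Bcam chr7:19770533-19770782 on the minus strand, and for Gata3 chr2:9878601-9878850 on the minus strand. They hold 2, 5, 29, 22 and 19 CG pairs in the order printed; the 5 were picked and do not stand for their groups. RefSeq promoters were found for 41 of the 59 genes (69.5%), too few for a comparison of CpG content over the group.

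Bivalent and poised states were mostly seen in 1 population. Of the bivalent bins, 646 (56.2%; 95% interval 53.2 to 59.1) were bivalent in fetal cells only, 245 (21.3%; 19.0 to 23.8) in adult cells only and 259 (22.5%; 20.1 to 25) in both. Of the poised bins, 332 (59.1%; 54.9 to 63.2) were poised in fetal cells only, 144 (25.6%; 22.1 to 29.4) in adult cells only and 86 (15.3%; 12.4 to 18.5) in both. Intervals of shares are exact (Clopper-Pearson) throughout. They reflect counting error alone, and runs of adjacent bins make them narrower than they should be. Bins marked as active promoters were active in both populations in 82.3% of 8956 cases, and active enhancers in 52.9% of 10573, while primed enhancers were primed in both in only 4.90% of 2288. The shares with a mark in both populations were thus far lower for bivalent and poised bins than for active promoters and active enhancers, with intervals that did not overlap, and higher than for primed enhancers. Whether the fetal and adult marks were called at equal depth is not stated.

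**Figure D1:**
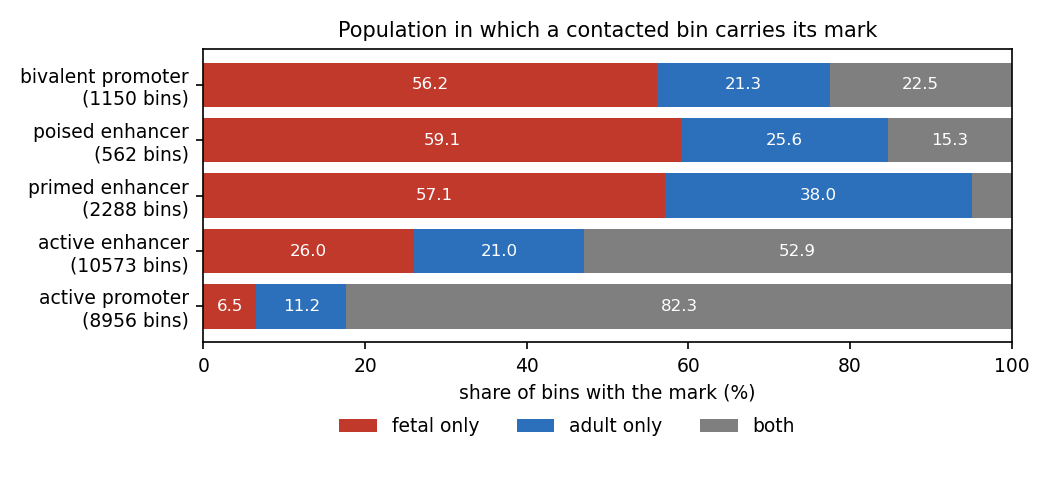
Share of contacted bins (horizontal axis, percent) that carry their mark in fetal cells only (red), adult cells only (blue) or both (grey), for each of 5 annotated states with the number of bins beside its name. Bivalent and poised bins were marked in both populations in 22.5% and 15.3% of cases, against 82.3% of active promoter bins.

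A bin that was bivalent in 1 population seldom carried another mark in the other population. Of the 646 bins bivalent in fetal cells only, 530 (82.0%) had none of the 5 marks in adult cells, 73 (11.3%) were active promoters there, 32 were active enhancers and 14 were poised enhancers. Most of the unmarked ones, 442 of 530, were nevertheless open in adult cells by ATAC-seq, an assay of accessible chromatin. In the opposite direction, 187 of the 245 bins bivalent in adult cells only (76.3%) had no mark in fetal cells, 23 were active promoters, 24 active enhancers and 10 poised enhancers. Poised bins behaved alike: 300 of 332 fetal-only bins (90.4%) had no mark in adult cells, 17 were active enhancers and 11 bivalent. Of the 144 adult-only poised bins, 119 (82.6%) had no mark in fetal cells, 16 were bivalent and 9 were active enhancers. An exchange between the bivalent and the active state was therefore the smaller part of the difference between the populations. A missing mark can also be a mark below the authors' threshold, which these 0 or 1 values cannot show.

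The classes differed in openness. Bivalent bins were open in 86.3% of cases in fetal and 85.7% in adult cells, and 91 of 1150 (7.91%) were open in neither. Poised bins were open in 49.8% and 47.5%, close to the 48.6% and 46.9% of all contacted bins, and 225 of 562 were open in neither. Bivalent bins also lay next to each other: 715 of 1150 (62.2%) adjoined another contacted bivalent bin, so that the 1150 bins formed 778 runs, the longest of 4 bins. The 562 poised bins formed 385 runs, the longest of 5 bins, at chr15:82750001-82760001 (mm9). Of the poised bins, 135 (24%; 20.5 to 27.8) lay within 10 kb of a bivalent bin other than themselves, against 2.42% of active enhancer bins and 4.30% of all bins. Poised and bivalent annotations thus fell in the same neighbourhoods far more often than active enhancers did.

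The 59 genes that lay in bivalent bins had low expression at both stages. Their 63 promoter entries (suffixes such as Igf2_2 number alternative promoters, and an entry is 1 captured promoter in 1 batch) had a median of 1.20 FPKM in fetal cells (95% interval of the median 0.588 to 2.14) and 1.31 FPKM in adult cells (1.03 to 1.82). FPKM is the authors' expression value per length and depth. The 1408 entries whose bin was an active promoter in both populations and never bivalent had medians of 8.09 FPKM (7.44 to 8.94) and 7.61 FPKM (7.12 to 8.26). Under 1 FPKM lay 28 of the 63 (44.4%) in fetal and 23 (36.5%) in adult cells, against 9.02% and 1.70% of the active entries, but only 8 (12.7%) did so at both stages. The gap held within each batch: bivalent entries of the first batch had a fetal median of 1.11 FPKM against 13.3 FPKM for the active ones, and those of the second batch 1.39 FPKM against 4.63 FPKM. The second batch holds only promoters marked as differentially expressed, which keeps genes silent at both stages out of it.

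At most of the genes whose bin was bivalent in 1 population only, FPKM was lower in that population. Of the 39 entries in bins bivalent in fetal cells only, 33 carried the mark of differential expression in the authors' deposited table, 23 of them with the higher FPKM in adult cells and 10 in fetal cells. Of the 11 in bins bivalent in adult cells only, 9 were marked, 7 with the higher FPKM in fetal and 2 in adult cells. Over all 3753 captured promoters the mark stood at 36.4% for adult-higher and 30.3% for fetal-higher genes. In the second batch alone, where every promoter is marked, 19 of 26 entries in fetal-only bins were higher in adult cells, against 54.1% of all promoters, and 6 of 7 in adult-only bins were higher in fetal cells, against 45.9%. The fetal-higher share of the second batch was 26.9% (11.6 to 47.8) for fetal-only and 85.7% (42.1 to 99.6) for adult-only bins, and both intervals include the 45.9% of all promoters, so the lean does not leave the background beyond counting error. In the first batch the counts were 4 of 7 and 1 of 2, too few to show a lean. Entries in bins that were bivalent in both populations went both ways, with 7 higher in fetal and 3 in adult cells among the 10 marked.

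Genes in fetal-only bivalent bins whose FPKM was far higher in adult cells had varied roles, and the examples here and in the following paragraphs were chosen after their values were seen. Dnajc6, which encodes the clathrin-uncoating cofactor auxilin, had 0.261 fetal and 5.22 adult FPKM. Ltbp3, a binding protein of latent TGF-beta, had 0.326 and 9.44 FPKM, and its bin was closed in both populations. The purine enzyme gene Gda had 0.178 and 4.04 FPKM, and Gstt1, a glutathione transferase, 0.169 and 3.69 FPKM.

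At some named fetal-only bivalent bins the adult annotation was an active promoter. Gda and Gstt1 were among them. Others held Slc7a4 (0.975 and 4.34 FPKM in fetal and adult cells), the glucocorticoid-induced leucine zipper gene Tsc22d3 (8.81 and 22.2 FPKM), the junction protein gene F11r (3.27 and 7.54 FPKM), Kctd17, Gstk1, Gucy1b3, Cx3cl1, Tmem231, 1110021L09Rik and Cerkl_1. Of the genes named here, all except Cerkl_1 (2.93 and 2.72 FPKM, not marked) were higher in adult cells. The reverse annotation, active promoter in fetal and bivalent in adult cells, was seen at 3 named bins. They were those of the death receptor gene Tnfrsf25 (2.32 and 0.433 FPKM), Tmem91 (1.20 and 0.643 FPKM) and 2610029I01Rik (2.06 and 0.987 FPKM). All 3 genes had the higher FPKM in fetal cells. These are 0 or 1 annotations of bins, and a bin can carry both in the same population. A switch of state at a promoter was not tested.

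Some genes in fetal-only bivalent bins had the higher FPKM in fetal cells. Cited4, a CBP/p300-binding cofactor, was bivalent in fetal cells only and had 18.0 FPKM there against 1.03 FPKM in adult cells. The sphingosine kinase gene Sphk1 (6.22 and 1.24 FPKM) and the channel gene Hcn3 (3.36 and 0.422 FPKM) did the same. In adult-only bivalent bins, the lactate exporter gene Slc16a3 (11 and 1.22 FPKM), the laminin receptor gene Bcam (5.78 and 1.52 FPKM) and the imprinted zinc finger gene Plagl1 (1.06 and 0.0341 FPKM) were higher in fetal cells. Hoxa10_1 (3.49 and 6.18 FPKM) and Tceal3 (0.150 and 1.82 FPKM) were the 2 that were higher in adult cells.

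Bins bivalent at both stages held 13 entries, with FPKM values that differed widely. The 3 Igf2 entries, for the fetal growth factor IGF2, stood at 36.4, 21.7 and 20.6 FPKM in fetal and 0.798, 0.561 and 0.536 FPKM in adult cells, although both of their bins were bivalent in both populations. Egr1, an immediate-early transcription factor tied to HSC quiescence, went the other way with 0.702 and 25.3 FPKM. Gata3_1, of a T lineage regulator, was low in both with 1.34 and 1.93 FPKM, and the peroxidase gene Gpx3 had 3.4 and 0.448 FPKM. Tbx3, a T-box regulator of development in a fetal-only bin, was listed at 0 FPKM in both populations.

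**Figure D2:**
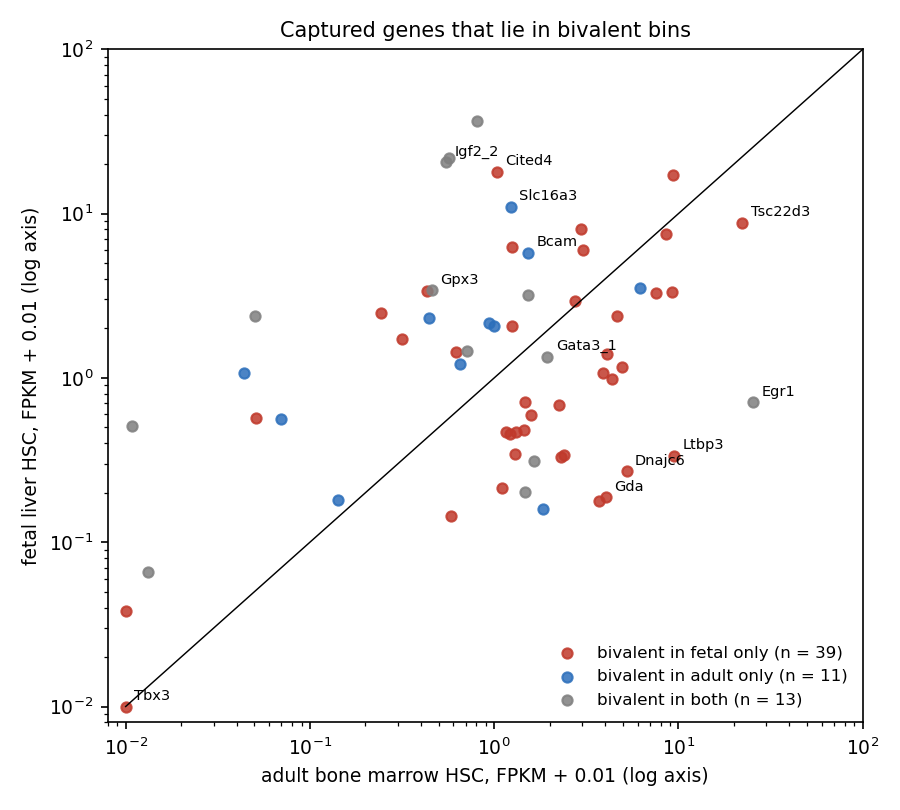
FPKM of the 63 captured promoter entries that lie in bivalent bins, in adult (horizontal) and fetal cells (vertical), each plus 0.01 on log axes, coloured by the population in which the bin is bivalent; the line marks equal values. Most red points (bivalent in fetal cells only) lie below the line, with the exceptions led by Cited4 above it, and most blue points (bivalent in adult cells only) lie above it.

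Marker genes were read for the cell types behind the FPKM values, since other cells would carry other marks. These values do not come from the Capture-C samples, so they cannot check the sort of the cells that gave the contacts. All 13 captured promoters of HSC and progenitor markers had at least 9.84 fetal and 8.94 adult FPKM. Of the 6 captured myeloid promoters 5, and of the 4 erythroid promoters all 4, were marked as higher in fetal cells (Mpo 46.1 and 2.04 FPKM, Klf1 24 and 2.4 FPKM), whereas both megakaryocyte promoters were marked as higher in adult cells (Pf4 14.2 and 113 FPKM). Flt3, the antigen sorted against, had 6.20 and 3.81 FPKM. B cell, T cell and hepatocyte markers were not among the captured promoters. The part of other cells in the stage differences of marks, contacts and FPKM was not tested.

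Contacts with poised bins were fetal-specific more often than contacts in general, and those with bivalent bins were not set apart from them. A deposited score above 0 is taken here as a call. Of all contacts within a chromosome, 39% (first batch) and 34% (second batch) were called in fetal cells only, and 35.7% and 29.3% in adult cells only. Poised bins had 328 first-batch contacts called in 1 population, 192 of them fetal-specific (58.5%; 53.0 to 63.9), and 167 in the second batch, 105 of them fetal-specific (62.9%; 55.1 to 70.2). For bivalent bins the counts were 351 of 633 (55.5%; 51.5 to 59.4) and 241 of 420 (57.4%; 52.5 to 62.2). All contacts within a chromosome gave 52.1% and 53.7%, which lie below the intervals of the poised bins but inside those of the bivalent bins. Bins with none of the 5 marks gave 54.2% (53.6 to 54.8) and 55.4% (54.6 to 56.1), within the intervals of the bivalent bins in both batches and of the poised bins in both. Active promoter bins gave 46.5% and 50.7% and active enhancer bins 47.8% and 48.4%, with upper interval bounds below the lower bounds of both classes in the same batch. The margin was narrow for active promoters and bivalent bins of the second batch, at 52.3% and 52.5%.

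**Figure D3:**
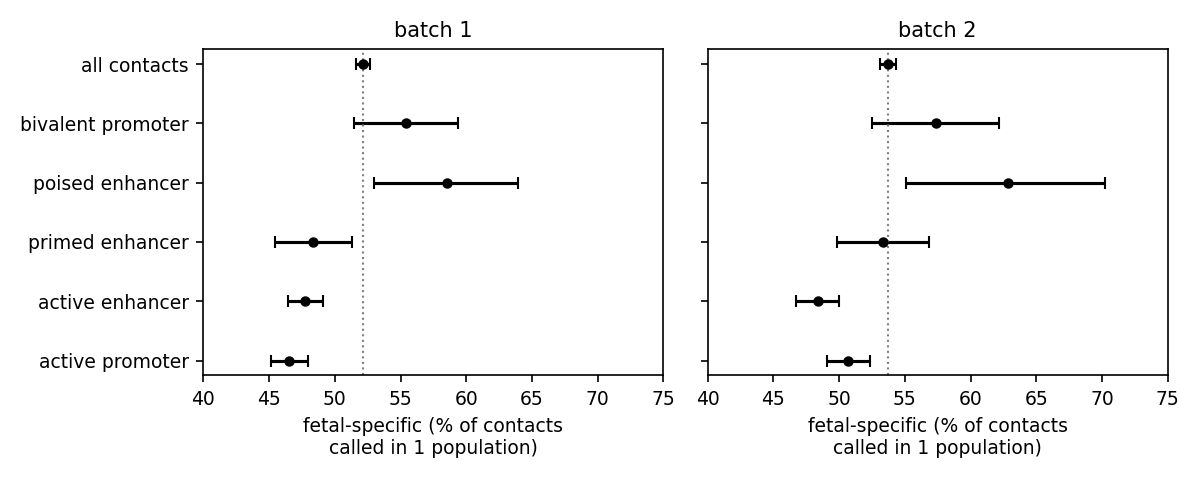
Share of fetal-specific contacts among those called in 1 population only (horizontal axis, percent; points with exact 95% intervals), by the mark of the contacted bin, for each batch; the dotted line is the value of all contacts. Poised bins stand highest in both batches, at 58.5% and 62.9%, and active promoter and enhancer bins lie below the line.

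Other contacts of the same promoters lay nearer to the value of all contacts. Those of the promoters that touched a poised bin were fetal-specific in 52.4% (51.3 to 53.6) and 54% (52.2 to 55.7) of cases in the respective batches, below the poised shares but, at the upper bound, within their intervals. The other contacts of those that touched a bivalent bin gave 52.6% and 54.8%, within the intervals of the bivalent bins. Contacts called in both populations made up 28.6% (25.7 to 31.7) and 37.1% for bivalent and 25.3% and 35.3% for poised bins, against 25.3% and 36.7% of all contacts and 39.3% and 50.2% of those with active promoter bins.

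The fetal-specific share varied with distance for all contacts and for bivalent and poised bins, the sets examined by distance. In the second batch it was 8.03% of all contacts under 50 kb, 53.8% at 50 to 100 kb, 69.1% at 100 to 200 kb and 71.7% at 200 to 500 kb. Poised bins gave 7.41%, 63.5%, 83.0% (70.2 to 91.9) and 86.4% (65.1 to 97.1) in the same distance classes, and bivalent bins 6.58%, 54.5%, 74.1% (65.8 to 81.2) and 80.2% (69.9 to 88.3). Of these second-batch values, the poised one at 100 to 200 kb alone had an interval that left out the value of all contacts. In the first batch, poised bins gave 61.7% (52.8 to 69.9) at 100 to 200 kb against 53.3% of all contacts, and bivalent bins 62.7% (56.5 to 68.6) at 200 to 500 kb against 59.1%, with the reference inside the interval. Under 50 kb the classes held few contacts called in 1 population, 14 and 27 for poised bins.

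**Figure D4:**
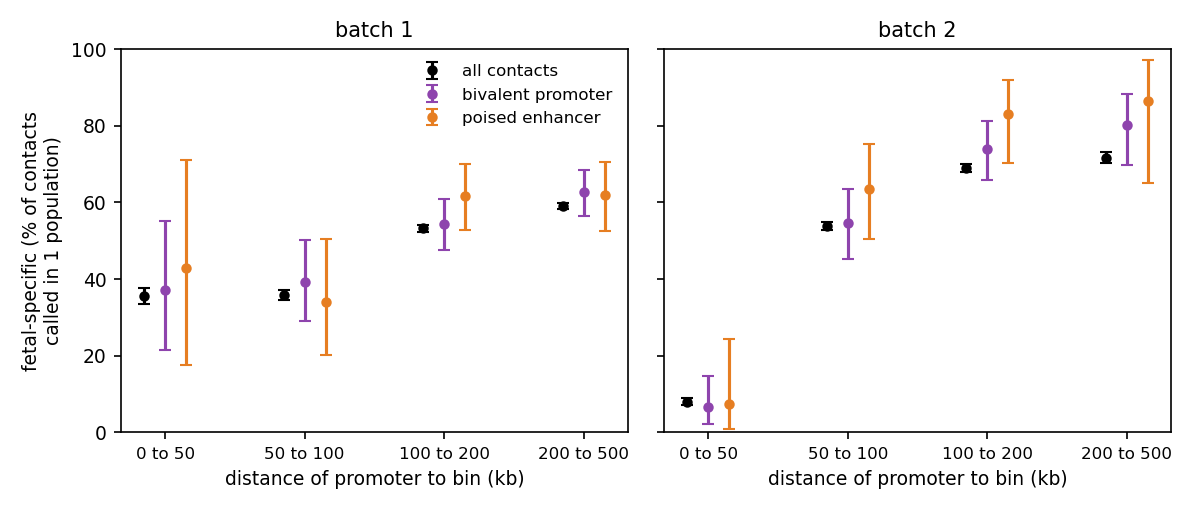
Fetal-specific share (vertical axis, percent of contacts called in 1 population, with exact 95% intervals) by distance between promoter and bin, for all contacts (black), bivalent (purple) and poised bins (orange) in each batch. In the second batch the share goes from 7.41% under 50 kb to 86.4% at 200 to 500 kb for poised bins and from 8.03% to 71.7% for all contacts. Beyond 500 kb, not drawn, poised bins of the second batch have only 2 such contacts.

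By their median ratio, counts of both classes lay slightly further to the fetal side than those of all contacts. The count ratio is log2 of the fetal over the adult count, each plus 1. Its median for poised bins was 0.24 (0.14 to 0.42) in the first and 0.35 (0.25 to 0.45) in the second batch, and for bivalent bins 0.22 (0.15 to 0.32) and 0.32 (0.26 to 0.42). All contacts had medians of 0.144 and 0.23, so about 0.1 of each value remains relative to them. Unlike for the calls, the bivalent intervals leave out the value of all contacts in both batches, narrowly in the first (lower bound 0.152). The poised interval leaves it out in the second batch only, with a lower bound of 0.138 in the first. Other contacts of the same promoters had medians of 0.17 and 0.258 for bivalent bins and 0.17 and 0.263 for poised bins. Bins with none of the 5 marks had medians of 0.193 and 0.255. These values lay inside the intervals of both classes, except for bivalent bins of the second batch, with a lower bound of 0.263. Counts at least 2-fold higher in fetal cells were seen in 23.7% (19.8 to 28.0) and 21.3% (16.5 to 26.8) of the contacts with poised bins and in 18.8% and 16.9% of those with bivalent bins, against 20.9% and 14% of all contacts, which the poised interval leaves out in the second batch only. Counts at least 2-fold higher in adult cells were seen in 12.1% and 2.33% for poised and 10.5% and 3.74% for bivalent bins, against 14.4% and 4.33%. Median counts per contact were 10 fetal and 8 adult for first-batch poised bins and 28 and 22 for second-batch ones, so a single contact resolves no small difference.

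Distances did not set these bins apart. The median distance was 171 kb (162 to 183) for bivalent and 168 kb (159 to 184) for poised bins in the first batch, against 172 kb for all contacts. In the second batch it was 96.9 kb (89.4 to 103) and 89.5 kb (82.8 to 98.8), against 92.1 kb. Within the bivalent class, bins with the mark in fetal cells only lay nearest to the promoters that contacted them. Their medians were 157 kb (148 to 169) and 88.2 kb (79.0 to 98.5) in the respective batches, against 199 kb (172 to 226) and 111 kb (93.3 to 135) for adult-only bins and 197 kb (169 to 230) and 104 kb (90.2 to 114) for bins bivalent in both. In the first batch the interval of the fetal-only bins ended just short of those of the other states, and in the second the intervals overlapped.

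The population that carried the mark and the one in which the contact was called did not go together. Bins bivalent in fetal cells only had fetal-specific shares of 56.0% and 53.1% in the respective batches. Bins bivalent in adult cells only had 53.0% (44.2 to 61.7) and 67.0% (56.2 to 76.7), and those bivalent in both 56.5% and 59.6%. Adult-only poised bins gave 60.5% and 67.7%, against 55.9% and 60.4% for fetal-only ones. A bivalent or poised mark present in adult cells alone therefore came with at least as large a fetal share as one present in fetal cells alone, in each pair but the bivalent one of the first batch, and the intervals overlapped. Open poised bins gave 62.4% (55.0 to 69.3) and 63.0%, and poised bins closed in both populations 53.5% (45.0 to 61.9) and 62.7%.

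Promoters that contacted such bins had median FPKM values close to those of all captured promoters. The 506 promoters of the first batch with a bivalent contact had medians of 9.24 fetal and 9.9 adult FPKM, against 8.55 and 10.0 FPKM for all 1939. The 381 of the second batch had 3.33 and 3.91 FPKM, against 2.81 and 3.54 FPKM for all 1814. Under 1 FPKM in fetal cells lay 13.0% and 16.3% (12.7 to 20.4) of them, against 13.0% and 22.3% of all promoters. For poised bins the 243 and 144 promoters had fetal medians of 7.43 and 3.25 FPKM, with 14% and 14.6% (9.26 to 21.4) under 1 FPKM. The second-batch fetal intervals of both classes leave out the value of all promoters. Under 1 FPKM in adult cells lay 11.7% and 8.4% of the promoters with a bivalent contact and 14.8% (10.6 to 19.9) and 11.8% (7.03 to 18.2) of those with a poised contact, against 11.4% and 8.65% of all promoters, which all 4 intervals include. Most promoters with a bivalent or poised contact were thus not silent, which also held for the captured promoters at large. The second batch lists no promoter under 1 FPKM at both stages.

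Promoters marked as differentially expressed that contacted a bivalent bin were more often the fetal-higher ones than promoters at large. In the first batch 96 of the 176 marked (54.5%; 46.9 to 62.1) were higher in fetal cells, against 44.3% of all marked promoters of that batch. The mark stood on 35.6% of its 1939 promoters, 15.8% as fetal-higher and 19.9% as adult-higher. The second batch gave 208 of 381 (54.6%; 49.4 to 59.7), against 45.9%. The value was highest for adult-only bivalent bins of the first batch, at 32 of 45 (71.1%; 55.7 to 83.6), while in the second batch these bins gave 58.1% (47.4 to 68.2). Promoters with a contact to an active promoter bin gave 47.0% and 48.5%. For poised bins the shares were 48.6% (36.7 to 60.7) and 56.9% (48.4 to 65.2), which include the values of all promoters in the first batch but not in the second.

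Bivalent bins were shared among genes a little more than bins in general. Contacts from at least 2 genes were seen for 275 of 1150 bivalent bins (23.9%; 21.5 to 26.5) and 96 of 562 poised bins (17.1%; 14.1 to 20.5), against 18.9% of all bins and 41.9% of active promoter bins. Active enhancer bins gave 22.1%, inside the interval of the bivalent bins. The most shared poised bin, chr6:51128001-51130001 (mm9), was contacted from 6 genes and 9 promoters: 7 of the Hoxa cluster and those of Skap2 and Cbx3. The Hoxa genes encode homeobox factors, of which HOXA9 and HOXA10 promote HSC self-renewal. The Hoxa promoters lie between 1034 and 1062 kb from the bin, Skap2 at 835 kb and Cbx3, a heterochromatin protein gene, at 291 kb. It was poised in fetal cells only and open in both.

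All 9 promoters had a call with this bin in fetal cells and 3 of them also in adult cells. Hoxa9 had 21 fetal and 20 adult counts, Hoxa10 had 18 and 11, and Hoxa10_1 had 10 and 12, these 3 being called in both. The fetal-specific ones were Hoxa3_1 with 15 and 8 counts, Hoxa9_2 with 13 and 10, Hoxa7_2 with 12 and 4, Hoxa7_1 with 11 and 9, Skap2 with 11 and 4 and Cbx3 with 11 and 6. The sum was 122 fetal and 84 adult counts, and Hoxa10_1 alone had more adult counts. Calls in the surrounding bins did not lean the same way. Hoxa promoters contacted 6 bivalent or poised bins of chr6:51128001-51160001, this bin included, with 5 fetal-specific, 4 adult-specific and 3 shared contacts. The 4 adult-specific contacts all lay in the surrounding bins, where Hoxa9 had the only fetal-specific one, with 11 and 3 counts. Of the adult-specific ones, Hoxa7_1 contacted the bivalent bin at chr6:51158001-51160001 with 2 fetal and 12 adult counts. The 160 other contacts of all captured promoters of Hoxa3, Hoxa7, Hoxa9 and Hoxa10 held 43 fetal-specific and 70 adult-specific ones, a lean to the adult side.

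A bivalent bin inside the cluster was the most shared of its class in the first batch. The bin at chr6:52168001-52170001, which holds the captured fragment of Hoxa7 (7.52 fetal and 8.59 adult FPKM), was contacted from Hoxa3_1, Skap2, Snx10 and Cbx3 with 260 fetal and 237 adult counts in all. Most of these, 203 fetal and 180 adult counts, came from Hoxa3_1 at 5.6 kb, a contact called in adult cells only. The bin was bivalent in fetal cells only. Skap2, an adaptor of immune signalling next to the cluster, contacted 7 bivalent and 3 poised bins, and its bivalent contacts held 136 fetal and 95 adult counts with 4 fetal-specific, 3 shared and 0 adult-specific calls. Skap2 itself had 13.8 fetal and 26.6 adult FPKM.

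The cell cycle inhibitor gene Cdkn2c, which encodes the CDK4/6 inhibitor p18, gave a one-sided group in a window that was chosen after its values were seen. Its 2 captured promoters contacted 6 neighbouring bins at chr4:109646001-109662001 (mm9), of which 2 were bivalent and 4 poised, at distances of 309 to 323 kb. All 10 contacts were called in fetal cells and none in adult cells, with 105 fetal and 38 adult counts in all. The bivalent bins gave 16 and 5 counts and 14 and 3 counts from Cdkn2c and 12 and 5 and 12 and 4 counts from Cdkn2c_1. The poised bin at 321 kb gave 15 fetal and 3 adult counts, while a contact of Cdkn2c_1 at 310 kb had 6 counts in each population, so its call rests on the threshold and not on the counts. The 55 other contacts of these promoters were not one-sided, with 24 fetal-specific, 21 adult-specific and 10 shared. Both promoters had the lower expression in fetal cells, with 0.706 and 0.638 FPKM against 3.26 and 3.44 FPKM in adult cells.

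Fcgr1, the gene of the high-affinity Fc receptor of myeloid cells, had more bivalent contacts than any other promoter. Of its 55 contacts 11 were with bivalent and 9 with poised bins, 4 of which carried both annotations, over 16 bins at chr3:96126001-96332001 (mm9) and 29.1 to 233 kb away. These contacts held 272 fetal and 174 adult counts, and the fetal count was the higher in 15 of the 16. The exception, at 183 kb, had 7 fetal and 14 adult counts. The calls were 7 fetal-specific, 2 adult-specific and 7 shared, against 9, 14 and 16 among the other 39 contacts of the promoter. Fcgr1 had 1.03 fetal and 0.0555 adult FPKM, in the direction of the myeloid markers given above, and the part of myeloid cells in this was not tested. At 4 bins the annotation was bivalent in fetal and poised in adult cells.

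**Figure D5:**
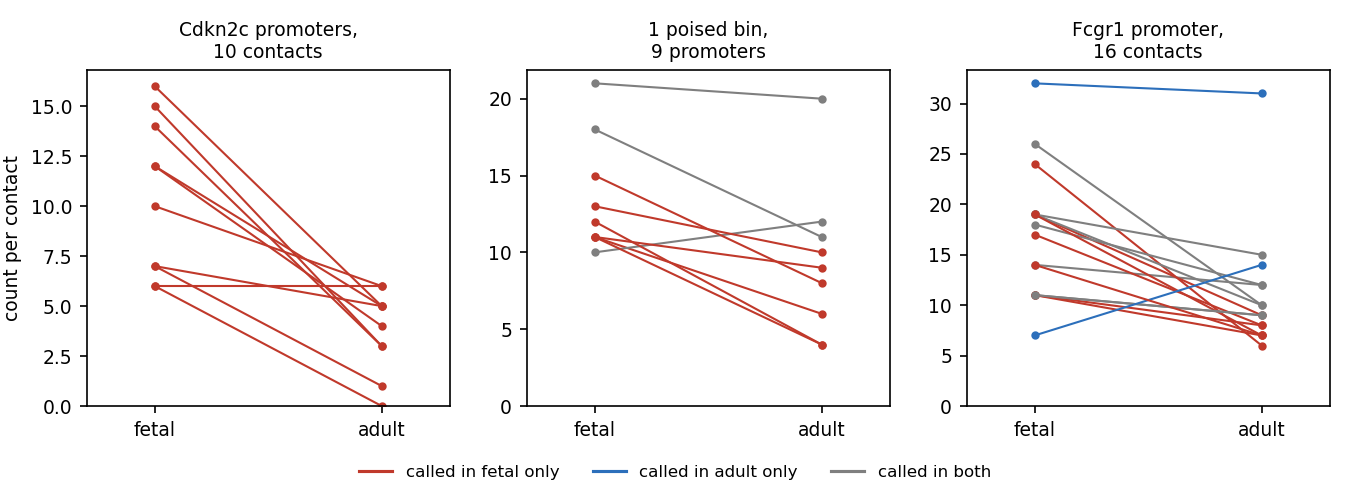
Counts per contact in fetal and adult cells (vertical axis, from 0), 1 line per contact, for the 10 contacts of the Cdkn2c promoters, the 9 promoters that contacted the poised bin on chromosome 6 and the 16 contacts of Fcgr1; colours give the population in which the contact was called. The Cdkn2c lines fall from 6 to 16 fetal counts to 0 to 6 adult counts with 1 flat line, and 1 line goes up in each of the other panels.

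Tbx3 and Rbm19, both on chromosome 5, contacted poised bins with opposite leans. Rbm19, a ribosome biogenesis gene, contacted 9 poised bins, 6 of them adult-specific, 1 fetal-specific and 2 shared, with 43 fetal and 65 adult counts in all. It also contacted the fetal-only bivalent bin that holds the Tbx3 promoter, with 8 fetal and 6 adult counts. Its 62 contacts leaned to the adult side in general, with 12 fetal-specific and 36 adult-specific. The silent Tbx3 promoter contacted 4 poised bins and 1 bivalent bin. The strongest, at 794 kb, had 20 fetal and 8 adult counts, and the other poised bins had 8 and 8, 8 and 6 and 8 and 4 counts. Its 79 contacts leaned to the fetal side in general, with 46 fetal-specific and 23 adult-specific.

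Among the cell cycle inhibitors, Cdkn1a (p21) shared a poised bin at chr17:29326001-29328001 with the neighbouring genes Stk38 and Srsf3. Its 3 promoters gave 13 and 13, 19 and 18 and 11 and 5 fetal and adult counts there, and the bin was closed in both populations and poised in fetal cells only. Imprinted Cdkn1c had 1 adult-specific bivalent contact with 6 fetal and 9 adult counts. Of the 4 captured genes of this list, 2 contacted a bivalent and 2 a poised bin, where 25.4% and 10.8% of all 3352 captured genes did. The 4 genes had 7 captured promoter entries.

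Of 16 captured developmental transcription factors that are frequent Polycomb targets, 6 contacted a bivalent bin (2 fetal-specific, 4 adult-specific and 3 shared contacts) and 6 a poised bin (8, 3 and 5). This was 37.5% of the 16 in each case, where 25.4% and 10.8% of all captured genes contacted such bins. The 16 genes had 24 captured promoter entries, against 3753 for all 3352 captured genes, and more entries give a gene more occasions for a contact. Among the poised ones, Hoxa3, Hoxa7, Hoxa9 and Hoxa10 all contacted the same bin, chr6:51128001-51130001. The difference was not tested for this list or the next. Beside the Hoxa and Tbx3 promoters, Hoxb3_1 contacted a poised bin at 66.7 kb with 20 fetal and 5 adult counts. Of 9 captured developmental signalling genes, with 13 promoter entries, 3 (33.3%) contacted bivalent and 0 poised bins. Igf2_2 contacted 3 fetal-only bivalent bins at 288 to 308 kb, all fetal-specific, with 10 and 5, 8 and 3 and 9 and 2 fetal and adult counts, and FPKM values of 20.6 and 0.536. A bivalent contact of Igf2_2 at 2.05 kb was adult-specific with 450 and 393 counts, and the 83 contacts of Igf2_2 leaned to the fetal side in general, with 38 fetal-specific and 23 adult-specific.

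Of 31 captured HSC regulators, 4 (12.9%) contacted a bivalent bin and 1 (3.23%), Hoxa9, a poised bin, where 25.4% and 10.8% of all captured genes did. The 31 genes had 44 captured promoter entries, and the difference was not tested. Gata2, a zinc finger factor needed for HSC maintenance, had a shared bivalent contact with 25 fetal and 19 adult counts. Hmga2, a fetal HSC gene, had an adult-specific one with 5 and 9, and Prdm16 an adult-specific one with 3 and 8 and a fetal-specific one with 10 and 5. Of 13 captured blood lineage regulators, with 19 promoter entries, 4 (30.8%) contacted bivalent and 2 (15.4%) poised bins. These stand beside the same 25.4% and 10.8%, also without a test. Id3, an inhibitor of bHLH factors with 3.73 fetal and 0.131 adult FPKM, had counts of 49 and 40 and of 48 and 15 with adjacent adult-only poised bins at 62.7 and 60.7 kb. Klf1, an erythroid factor, had 60 and 32 counts with a bivalent bin and 27 and 13 with a poised bin.

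Of 12 captured Polycomb and trithorax genes, 6 (50%) contacted a bivalent and 2 (16.7%) a poised bin, where 25.4% and 10.8% of all captured genes did. The 12 genes had 21 captured promoter entries, and this difference was not tested either. Cbx8, a chromobox subunit of Polycomb repressive complex 1, had 43 and 31 and 37 and 27 fetal and adult counts with adjacent bivalent bins and 43 and 29 with a poised bin, all shared. Cbx6_1 had the opposite ratio with 24 and 46 counts. Phc2, another subunit of the complex, contacted the bivalent bin of Trim62 with 23 and 14 counts, which was fetal-specific. Ezh1, a methyltransferase of H3K27, had 18 and 19 counts with a bin that was bivalent in fetal cells only.

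The largest count ratios went both ways. Among second-batch contacts the p53-induced ribonucleotide reductase gene Rrm2b had 23 fetal and 2 adult counts with a fetal-only bivalent bin at 169 kb, and the zinc finger gene Zfp202 had 1 and 22 counts with another at 75.4 kb. Among poised bins, the muscle kinase gene Speg had 33 and 4 counts at 60.4 kb and the cotransporter gene Slc12a4 had 5 and 22 at 52.7 kb. The DNA ligase gene Lig1 had 25366 fetal and 18769 adult counts with a fetal-only bivalent bin at 155 kb, although the other entries of the gene had 26 and 31 and 26 and 32 counts with the same bin. Sdc2 (3125 and 3784 counts at 143 kb) and Flt4 (844 and 512 at 2558 kb) likewise stood far above the median counts. For poised bins, Fcgr3 had 306 and 841 counts at 14.3 kb. Sfi1_1, Hspa8_1 and Pisd-ps2 contacted poised bins at 105779, 32592 and 36902 kb, the longest distances of either class.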

How the data were processed

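Promoter Capture-C contacts of fetal and adult HSCs were taken from 1 deposited table. Per the submitters' processing notes, Trim Galore 0.41 and Bowtie2 2.2.2 were used with mm9; the contact caller's settings are not given in the sources used here. The authors deposited a count per contact and population, pooled over the 2 libraries of a batch (whether summed or averaged is not stated), and a score whose scale is not stated. Scores above 0 start at 1.3 in batch 1 and 2 in batch 2. FPKM values, the 0 or 1 marks of bins and the mark of differential expression were also deposited by the authors. The planned description without tests was kept, with batches apart, in Python 3.11.15 with pandas 2.3.3 and SciPy 1.17.1. Shares carry exact 95% Clopper-Pearson intervals and medians order-statistic intervals; both cover counting error only. Distances run between fragment and bin middles. Summary functions were tested on simulated data. Of 3374 gene names, 3347 matched RefSeq symbols or synonyms. Members and gene lists were chosen with earlier results of these data known. Named contacts are the 5 with the highest score and the largest ratios (at least 20 counts) per class and batch, the 5 most shared bins, the 5 promoters with most contacts, the 10 captured genes in the bins with most counts, and list genes; not all are described. Other genes and windows named were chosen after their values were seen. A gene in these bins is not reported here by name.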

Additional observations from a re-analysis of the deposited data

Results flagged for a closer look

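Contacts between chromosomes were left out of every comparison. Of 1070 such contacts in the deposited table, 20 joined a captured promoter to a bivalent or poised bin of another chromosome (13 bivalent and 8 poised annotations). Shared calls made up 10 of these, while 8 were fetal-specific and 2 adult-specific. They make up 1.87% of the contacts between chromosomes, where 2.48% of the contacts within a chromosome joined such a bin.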

How the results depend on the processing

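Of 114 alternative values, 99 moved by less than the counting interval of the reported value, and 15 moved further. Centred on all contacts, the median log2 count ratios were 0.078 and 0.10 for bivalent bins in the respective batches and 0.10 and 0.12 for poised bins. With at least 20 counts a contact, the first-batch poised ratio was 0.11. With the mark required in both populations, bivalent distances were 197 kb and 104 kb, and first-batch poised bins gave 186 kb and a fetal-specific share of 64.3%. With a score 1 higher than the threshold, the first-batch poised distance was 159 kb and the fetal median of first-batch promoters contacting bivalent bins 10.9 FPKM. The share of promoters under an FPKM limit, less that of all promoters, depended on the limit, and 3 such differences changed sign within their counting intervals. For bivalent contacts of the first batch it went from -0.0045 to 1.19 percentage points in fetal cells (under 0.1 FPKM) and from 0.262 to -0.157 in adult cells (under 5 FPKM), and for poised contacts of the second batch from 3.15 to -0.345 in adult cells (under 5 FPKM). Under 5 FPKM it was -3.96 percentage points for bivalent contacts in fetal cells of the first batch and -4.05 in adult cells of the second. Under 0.1 FPKM in fetal cells of the second batch it was -0.247 for bivalent and -0.0773 for poised contacts. Placing captured fragments by overlap, an alternative chosen after seeing the data, left the 63 entries in bivalent bins and their medians as they were. The cause of these moves was not tested.

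No paired analysis was possible because each population has a single pooled value per batch, with no replicate columns; leaving out each library was not run for the same reason. First-batch contacts have median counts near 9, which limits single contacts. The spread between libraries is unknown, so every interval is a lower limit of the error.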
